A study of Mus musculus with 14 samples.

Results

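The 9 genes described here encode proteoglycans of the cardiac matrix and were followed in mouse left ventricle: versican (Vcan), asporin (Aspn), biglycan (Bgn), lumican (Lum), osteoglycin (Ogn), osteomodulin (Omd), decorin (Dcn), fibromodulin (Fmod) and Prelp. They were chosen by symbol, and every probe set annotated to exactly 1 of these 9 symbols was taken, which gave 27 of the 45101 probe sets on the array and 9 of the 12260 genes tested. Of the 27, 21 were tested, and each of the 9 genes was tested on at least 1 probe set. A probe set was tested where its log2 value lay above 5.75, the median of the whole table, on at least 3 arrays. Of 8 Vcan probe sets 5 did not reach it, and of 6 Fmod probe sets 1 did not.

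Arrays came from left ventricles of male C57BL/6 mice in 4 groups: Hsp22 KO mice after TAC (4 arrays), Hsp22 WT mice after TAC (4 arrays), Hsp22 KO mice in the basal state (3 arrays) and Hsp22 WT mice in the basal state (3 arrays). Hsp22 is the small heat shock protein encoded by Hspb8. TAC, transverse aortic constriction, narrows the aorta so that the ventricle works against a raised pressure, here for 3 days. The basal hearts had no pressure overload, no sham operation is labelled, and the sources used here do not give which part of Hspb8 the deletion took. Below, KO and WT stand for the Hsp22 genotypes, and arrays are named by group and replicate number. The question put by the design was how deletion of Hsp22 alters expression at baseline and under pressure overload.

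Small leucine-rich proteoglycans are secreted proteins whose curved leucine-rich repeats lie along collagen fibrils and set fibril thickness and spacing. Class I members (decorin, biglycan, asporin) bind collagen and growth factors such as TGF-β, class II members (fibromodulin, lumican, Prelp, osteomodulin) often carry keratan sulfate, and osteoglycin belongs to class III. Versican is a large chondroitin sulfate proteoglycan that binds hyaluronan and is a part of the provisional matrix laid down in development and after injury. In the heart these genes are expressed mainly by fibroblasts and other stromal cells.

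The deposited values are log2 expression values, so that a difference of 1 is a doubling of the linear value. On probe set 1417013_at, Hspb8 lay between 4.27 and 5.02 in TAC KO and between 4.40 and 5.13 in basal KO, against 11.09 to 12.29 in TAC WT and 11.29 to 11.99 in basal WT. A further probe set, 1417014_at, likewise separated the genotypes, at 5.10 to 5.92 over the KO arrays of both states against 10.26 to 11.64 over the WT arrays. The third, 1456434_x_at, read much closer, at 8.20 to 8.73 in TAC KO against 8.79 to 9.32 in TAC WT. In basal hearts it read 8.42 to 8.84 in KO against 9.66 to 10.01 in WT. The genotypes did not overlap on it within either state, but it passed in neither (limma adjusted p = 0.274 after TAC and 0.196 in the basal state). The 6 cardiomyocyte markers were among the bright genes of the table, with mean levels of 13.85 to 14.27 per array. Medians of the arrays ran from 5.7 to 5.8, and arrays of 1 group correlated at 0.967 to 0.995, with the lowest value within TAC WT. Array file names in the labels put the basal arrays in 1 run and the TAC arrays in another, so the run and the surgery cannot be told apart in any comparison of TAC with basal hearts. The file name of basal KO 3 also sets it on a day apart from the rest of the basal arrays. The labels do not state that arrays stand for separate animals, and the p-values therefore measure the spread among these samples alone.

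Versican and asporin had the largest rises among the 9 genes after TAC, in both genotypes. Vcan had log2 values of 8.93, 8.99, 9.14 and 9.61 in TAC KO and 8.13, 9.16, 9.32 and 9.29 in TAC WT, against 7.33, 7.48 and 6.65 in basal KO and 6.95, 7.57 and 6.88 in basal WT (probe set 1427256_at). Every TAC array lay above every basal array, with TAC WT 1 the lowest of the TAC arrays. TAC KO exceeded basal KO by 2.01 ± 0.30 (log2 difference ± SE), a 4.04-fold rise with a limma adjusted p of 0.000381. TAC WT exceeded basal WT by 1.84 ± 0.30, a 3.58-fold rise with an adjusted p of 0.000408. Both other tested Vcan probe sets rose as well, 1421694_a_at by 2.13 in KO and 1.69 in WT and 1427257_at by 1.27 in KO and 1.04 in WT. The 5 probe sets of Vcan that were not tested had group means from 3.52 to 4.58, so that the change is read from 3 of its 8 probe sets. In bulk tissue, a change in the number of cells of a type and a change in the RNA per cell cannot be told apart, which holds for every comparison below.

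Asporin, a class I member named for its stretch of aspartate residues, binds collagen and TGF-β. Aspn had 10.14, 10.87, 10.47 and 10.36 in TAC KO and 9.22, 8.96, 9.89 and 9.96 in TAC WT, against 8.29, 8.51 and 8.01 in basal KO and 8.22, 7.87 and 7.46 in basal WT (1416652_at). All 4 TAC KO arrays lay above all 4 TAC WT arrays, which in turn lay above every basal array. The difference between TAC KO and basal KO was 2.19 ± 0.26, a 4.56-fold rise (adjusted p = 0.000119), and that between TAC WT and basal WT was 1.66 ± 0.26, a 3.15-fold rise (adjusted p = 0.000327). A second probe set, 1448421_s_at, rose by 2.10 in KO and 1.78 in WT.

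Biglycan and lumican rose by less. Biglycan is a class I proteoglycan with chondroitin or dermatan sulfate chains, and its soluble form is a ligand of the innate receptors TLR2 and TLR4. Bgn had 12.44, 12.82, 12.71 and 12.61 in TAC KO and 11.65, 12.09, 12.60 and 12.28 in TAC WT, against 11.92, 12.04 and 11.50 in basal KO and 11.58, 11.17 and 11.08 in basal WT (1416405_at). Within each genotype the TAC arrays lay above the basal ones, while TAC WT 1 lay within the range of basal KO. Its log2 difference was 0.83 ± 0.21 in KO (1.77-fold, adjusted p = 0.00658) and 0.88 ± 0.21 in WT (1.84-fold, adjusted p = 0.00371). The other Bgn probe sets also rose in each genotype, 1448323_a_at by 0.98 in KO and 0.85 in WT and 1437889_x_at by 0.55 in KO and 0.41 in WT.

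Lumican, a class II member that binds collagen fibrils, had a single probe set, 1423607_at. Lum had 12.18, 11.74, 11.94 and 11.74 in TAC KO and 11.56, 11.60, 11.29 and 11.03 in TAC WT, against 11.07, 11.17 and 11.00 in basal KO and 11.09, 10.65 and 10.77 in basal WT. The KO groups did not overlap, whereas TAC WT 4 lay below basal WT 1. Lum rose by 0.82 ± 0.16 in KO (1.77-fold, adjusted p = 0.0017) and by 0.53 ± 0.16 in WT (1.45-fold, adjusted p = 0.0142). In WT the call rested on basal WT 2, without which it missed the threshold at 0.44 (adjusted p = 0.0679). Quantile normalization also ended the call, at 0.38 (adjusted p = 0.0741).

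Fibromodulin and Prelp fell after TAC. Fibromodulin, a class II member with a role in collagen cross-linking, had values of 6.70, 6.76, 6.44 and 6.56 in TAC KO and 6.24, 6.55, 5.86 and 5.31 in TAC WT, against 7.19, 7.48 and 7.95 in basal KO and 7.61, 7.40 and 7.18 in basal WT (Fmod, 1415939_at). All 8 TAC arrays lay below all 6 basal arrays. The log2 difference was -0.93 ± 0.25 in KO (1.90-fold lower, adjusted p = 0.00965) and -1.41 ± 0.25 in WT (2.65-fold lower, adjusted p = 0.000684). The KO call was lost without basal KO 3, the basal array of another day (-0.72, adjusted p = 0.0532). Of the 4 other tested Fmod probe sets, 1456084_x_at fell by 1.04 in KO and by at least 1.42 in WT. The other 3 had TAC means under 5.75 in both genotypes and entered the fit only or mainly through the basal arrays, so they are not counted as support.

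Prelp, a class II member that binds heparan sulfate as well as collagen, had 9.05, 8.33, 8.64 and 8.65 in TAC KO and 8.76, 9.02, 7.13 and 7.21 in TAC WT, against 10.00, 9.98 and 9.72 in basal KO and 9.56, 9.33 and 9.51 in basal WT (1416321_s_at). Every TAC array lay below every basal array, and TAC WT split into 2 arrays near the TAC KO range and 2 arrays more than 1 log2 unit below it. The fall was -1.23 ± 0.38 in KO (2.35-fold lower, adjusted p = 0.0203) and -1.44 ± 0.38 in WT (2.71-fold lower, adjusted p = 0.00796). The KO call was lost without basal KO 1, basal KO 2 or TAC KO 2, with adjusted p from 0.0505 to 0.061. The second Prelp probe set, 1416322_at, fell by 1.19 in KO (adjusted p = 0.00259) and by 1.34 in WT (adjusted p = 0.000961).

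Decorin, the class I member that coats type I collagen fibrils and binds TGF-β, did not follow its close relative biglycan. Dcn had 13.26, 12.78, 12.92 and 12.81 in TAC KO and 12.94, 12.96, 12.22 and 12.28 in TAC WT, against 13.20, 13.28 and 13.16 in basal KO and 13.21, 13.11 and 13.18 in basal WT (1449368_at). The basal arrays spanned less than 0.2 log2 units, TAC KO 1 lay among them, and TAC WT 3 and TAC WT 4 were the lowest. The difference in KO was -0.27 ± 0.18, with a 95% interval of -0.66 to 0.12 that spans 0 (adjusted p = 0.241). In WT Dcn fell by 0.57 ± 0.18 (1.48-fold lower, adjusted p = 0.0206). That call was lost without basal WT 1, basal WT 3, TAC WT 3 or TAC WT 4, with adjusted p from 0.0545 to 0.0608, with array weights (-0.34, adjusted p = 0.0821) and when the WT arrays were fitted alone (adjusted p = 0.0638). The second Dcn probe set, 1441506_at, had no TAC array above 5.75 and entered the fit through the basal arrays alone, so its differences of -0.61 in KO and -0.58 in WT are not counted as support.

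Osteomodulin and osteoglycin changed least. Osteomodulin, a keratan sulfate proteoglycan best known from bone and tooth, had 6.06, 6.31, 6.19 and 6.15 in TAC KO and 6.07, 5.68, 5.67 and 5.57 in TAC WT, against 6.24, 6.32 and 6.27 in basal KO and 6.25, 6.07 and 5.92 in basal WT (Omd, 1418745_at). These values lie near the filter value, and the groups of each genotype overlap. The difference was -0.10 in KO (95% interval -0.37 to 0.17, adjusted p = 0.539) and -0.33 in WT (adjusted p = 0.0416), where the TAC WT mean of 5.75 ± 0.22 (SD, n = 4) lay just under the filter value. The WT call was lost in 13 alternatives, among them quantile normalization (adjusted p = 0.0865) and leaving out basal WT 1 (adjusted p = 0.162).

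Osteoglycin, the class III member, had 11.60, 11.77, 11.50 and 11.02 in TAC KO and 11.45, 10.89, 10.82 and 10.72 in TAC WT, against 11.38, 11.37 and 11.41 in basal KO and 11.47, 11.14 and 11.39 in basal WT (Ogn, 1419662_at). TAC KO lay on both sides of basal KO, and 3 of 4 TAC WT arrays lay below basal WT. Neither difference passed, at 0.09 in KO (95% interval -0.32 to 0.49, adjusted p = 0.729) and -0.36 in WT (95% interval -0.77 to 0.04, adjusted p = 0.12). In WT it passed when TAC WT 1 was left out (-0.52, adjusted p = 0.0169) or the arrays were quantile normalized (-0.52, adjusted p = 0.0481). The second Ogn probe set, 1419663_at, gave 0.24 in KO and -0.24 in WT, and neither passed.

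**Figure D1:**
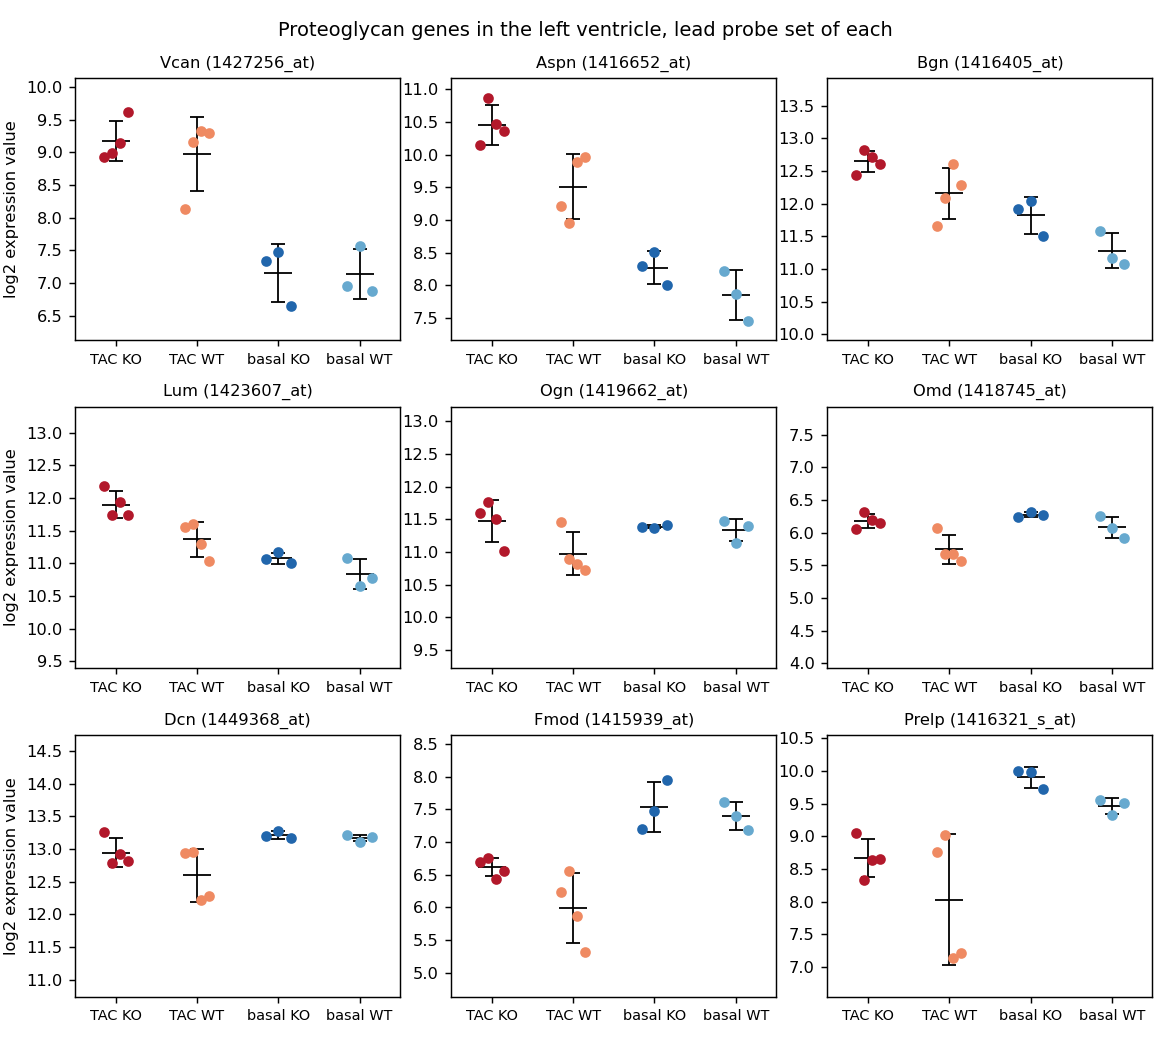
Log2 expression value (vertical axis) of the lead probe set of each proteoglycan gene, one panel per gene, in TAC KO, TAC WT, basal KO and basal WT. Points are arrays (4, 4, 3 and 3), the long line is the mean and the bar is 1 SD on each side, and every panel spans the same number of log2 units; Vcan and Aspn lie higher on all TAC arrays than on all basal arrays, and Fmod and Prelp lie lower.

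Counted by the brightest tested probe set of each gene, 4 of the 9 rose after TAC in KO (Vcan, Aspn, Bgn, Lum) and 2 fell (Fmod, Prelp), with 3 that did not pass. Over the 12260 genes tested the same way, 22.4% rose and 21.3% fell in KO. In WT 4 of 9 rose and 4 fell (Fmod, Prelp, Dcn, Omd), where 26.7% of all genes rose and 23.5% fell. Of all calls in WT 53.2% were higher, against 41.0% after quantile normalization and 62.8% after centring of each array. TAC and basal arrays did not overlap for 6 of 9 genes in each genotype, against 54.3% of all genes in KO and 49.9% in WT. The median difference over the 9 genes was 0.09 in KO and -0.33 in WT, beside -0.02 and 0.02 over all genes.

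**Figure D2:**
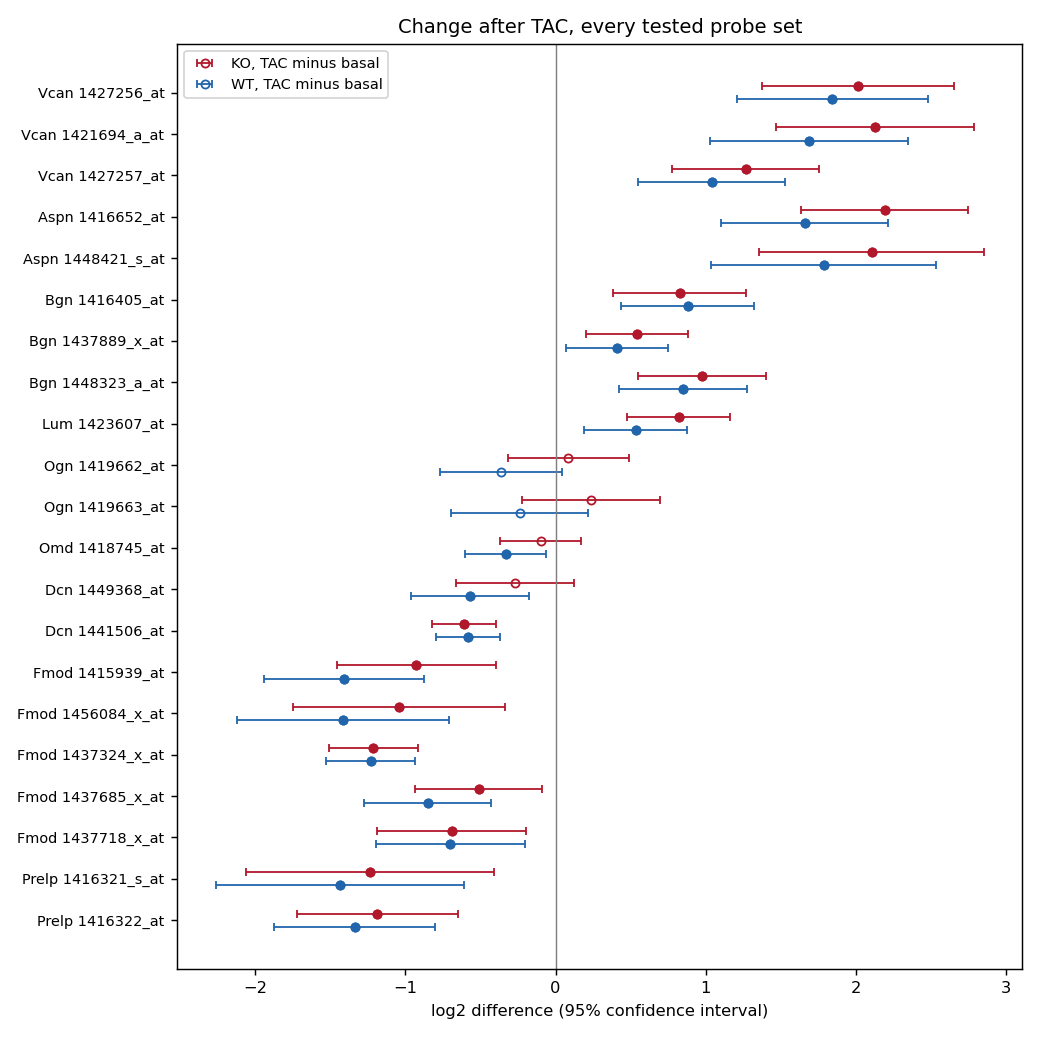
Log2 difference after TAC (horizontal axis) of each of the 21 tested probe sets, in KO (TAC KO minus basal KO) and in WT (TAC WT minus basal WT). Points are estimates from limma, bars are 95% confidence intervals, and filled points passed an adjusted p of 0.05; the probe sets of Vcan, Aspn, Bgn and Lum lie right of 0 and those of Fmod and Prelp left of 0 in both genotypes.

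The levels of the 4 groups came in the same order for 4 genes and in the opposite order of state for 3. For Vcan, Aspn, Bgn and Lum the group means descended from TAC KO through TAC WT and basal KO to basal WT. For Dcn, Fmod and Prelp they ascended from TAC WT through TAC KO and basal WT to basal KO. For Omd the order from the lowest was TAC WT, basal WT, TAC KO and basal KO, and for Ogn it was TAC WT, basal WT, basal KO and TAC KO. Neighbours in these orders that differ only in genotype did not differ past the threshold for any of the 9 genes, and TAC WT was not tested against basal KO.

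Related genes of the family can also be set against each other within each array, as was done for 3 pairs, by the difference of the 2 lead probe sets relative to the basal mean of the genotype. Bgn minus Dcn, both class I, lay between 0.57 and 1.43 in TAC KO and between 0.60 and 2.27 in TAC WT, against -0.27 to 0.15 in basal KO and -0.21 to 0.26 in basal WT. Fmod minus Lum, both class II, lay between -1.96 and -1.44 in TAC KO and between -2.28 and -1.61 in TAC WT, against -0.34 to 0.49 in basal KO and -0.15 to 0.19 in basal WT. Aspn minus Ogn, 2 genes of 1 chromosomal cluster, lay between 1.66 and 2.46 in TAC KO and between 1.25 and 2.72 in TAC WT, against -0.28 to 0.26 in basal KO and -0.45 to 0.23 in basal WT. No TAC array overlapped a basal array in any of the 3 pairs. The mean shift of the 2 genotypes was 1.27 for Bgn minus Dcn, -1.84 for Fmod minus Lum and 2.06 for Aspn minus Ogn. Each pair sets a gene that rose against one that fell or did not pass, and the pairs were chosen with the changes of these genes known, so the shifts are a description and carry no test. A difference within an array shows unequal change and not which of the 2 genes moved.

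**Figure D3:**
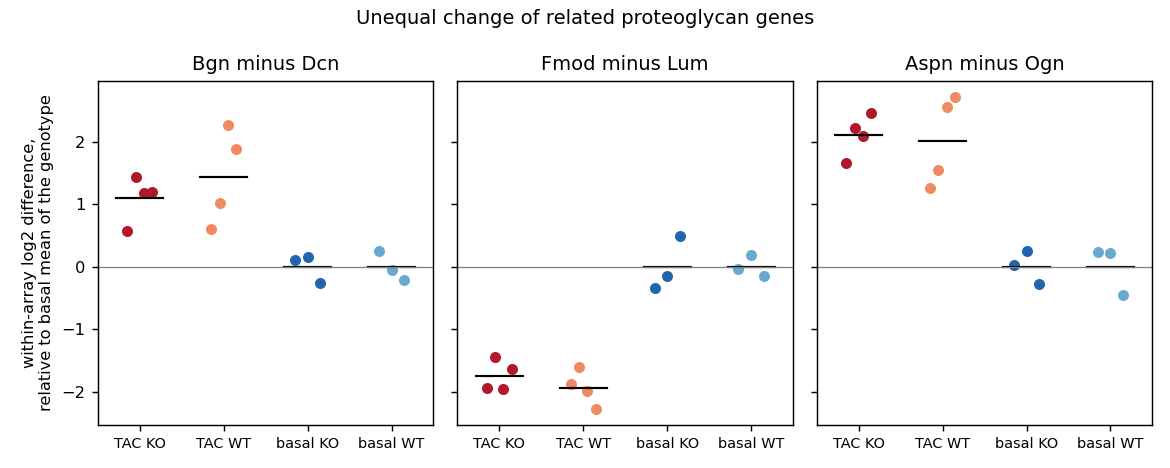
Within-array log2 difference between the lead probe sets of 3 pairs of related genes (vertical axis), relative to the basal mean of the same genotype, in TAC KO, TAC WT, basal KO and basal WT. Points are arrays and lines are group means; Bgn minus Dcn and Aspn minus Ogn lie above 0 on all 8 TAC arrays, and Fmod minus Lum lies below 0 on all 8.

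Several of the 9 genes neighbour each other in the genome. In RefSeq protein-coding genes of GRCm38.p6, Ecm2, Aspn, Omd and Ogn follow each other on chromosome 13, Dcn, Lum and Kera on chromosome 10, and Optc, Prelp and Fmod on chromosome 1. Vcan lies on chromosome 13 between Hapln1 and Xrcc4, and Bgn on chromosome X between Haus7 and Atp2b3. On chromosome 1 both neighbours, Prelp and Fmod, fell after TAC in each genotype. On chromosome 10 Lum rose and Dcn fell in WT, while in KO Lum rose and Dcn did not pass. Chromosome 13 held the widest contrast, with Aspn 4.56-fold higher in TAC KO and 3.15-fold higher in TAC WT. Omd passed as lower in WT alone (-0.33), and Ogn did not pass in either genotype. Ecm2, the leucine-rich gene next to Aspn, was lower in KO by at least 1.06 (limma adjusted p = 0.0429), with a TAC KO mean under the filter value. In WT Ecm2 had means of 5.79 after TAC and 6.56 in the basal state and did not pass. The 250 bases before the start of Aspn, Omd and Ogn are shown because these 3 neighbours share a cluster and changed unequally. All lie on the plus strand of GRCm38.p6, from RefSeq, at chr13:49544193-49544442 for Aspn, chr13:49582212-49582461 for Omd and chr13:49607765-49608014 for Ogn, written 5′ to 3′ with motif matches in capitals.
Aspn: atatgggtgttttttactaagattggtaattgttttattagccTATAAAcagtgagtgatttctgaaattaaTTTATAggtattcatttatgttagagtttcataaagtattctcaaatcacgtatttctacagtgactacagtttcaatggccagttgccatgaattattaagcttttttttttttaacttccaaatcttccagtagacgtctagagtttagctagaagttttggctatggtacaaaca
Omd: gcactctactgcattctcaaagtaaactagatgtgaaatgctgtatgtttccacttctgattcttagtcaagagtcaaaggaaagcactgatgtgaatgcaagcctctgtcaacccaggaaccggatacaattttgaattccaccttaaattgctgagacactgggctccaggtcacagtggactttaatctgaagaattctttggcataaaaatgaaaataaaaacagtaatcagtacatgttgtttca
Ogn: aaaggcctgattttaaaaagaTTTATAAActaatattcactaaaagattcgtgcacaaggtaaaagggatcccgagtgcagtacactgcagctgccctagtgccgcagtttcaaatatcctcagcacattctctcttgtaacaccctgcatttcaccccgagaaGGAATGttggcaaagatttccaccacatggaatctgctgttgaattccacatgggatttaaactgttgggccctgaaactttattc

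Both strands of these windows were searched for TATAAA (the TATA box), TGANTCA (the AP-1 site), CAGAC (a SMAD site) and GGAATG (a TEAD site). The Aspn window holds 2 matches to TATAAA, 1 on each strand. The Ogn window holds 2 matches to TATAAA that overlap each other, 1 on each strand, and 1 to GGAATG. The Omd window holds no match to any of the 4. Windows were at hand for 7 of the 9 genes, of which 2 hold TATAAA, 0 hold TGANTCA, 2 hold CAGAC (Fmod and Prelp) and 1 holds GGAATG. Over 32851 promoter windows of the same length the shares were 12.4% for TATAAA, 6.75% for TGANTCA, 42.2% for CAGAC and 12.6% for GGAATG. A match describes the letters alone.

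After TAC the KO hearts had higher values than the WT hearts for all 9 genes, and none of these differences passed the threshold. By lead probe set 0.00816% of all genes were higher and 0.00% lower in this comparison, which is the single gene Fbln5 (fibulin 5, an elastic fibre protein, log2 difference 0.96, adjusted p = 0.00861), while Hspb8 passed on 1417013_at and 1417014_at, which are not its brightest. Among lead probe sets of the 9 genes the largest difference was that of Aspn, at 0.95 ± 0.24 (95% interval 0.44 to 1.47, adjusted p = 0.274), with no overlap of the groups. On the second Aspn probe set the difference was 0.47 and the groups overlapped. Lum differed by 0.53 ± 0.15 (95% interval 0.21 to 0.85, adjusted p = 0.326), again with no overlap. These were the only 2 of the 9 without overlap, against 3.99% of all genes.

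The other 7 overlapped between TAC KO and TAC WT. Prelp differed by 0.64 (95% interval -0.13 to 1.40), Fmod by 0.63 (0.13 to 1.12) and Ogn by 0.50 (0.13 to 0.88). Bgn differed by 0.49 (95% interval 0.08 to 0.90), Omd by 0.43 (0.18 to 0.68), Dcn by 0.34 (-0.02 to 0.71) and Vcan by 0.19 (-0.40 to 0.78). Adjusted p-values of these 7 ran from 0.299 for Omd to 0.905 for Vcan. On further probe sets Prelp differed by 0.54 (1416322_at, 95% interval 0.05 to 1.03) and Bgn by 0.64 (1448323_a_at) and 0.525 (1437889_x_at). Fmod differed by 0.985 on 1456084_x_at, where the TAC WT mean lay under the filter value. None of the 21 tested probe sets passed. At an unadjusted p under 0.05, 6 of the 9 were higher in TAC KO and none lower, against 3.24% of all genes higher, and 9 of 9 were positive, against 46.0% of all genes. The median difference was 0.50, beside -0.02 over all genes.

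With arrays weighted by their quality, 5.37% of all genes were called higher in TAC KO and 6.53% lower, and 5 of the 9 passed as higher: Aspn (1.30, adjusted p = 0.0049), Omd (0.45, adjusted p = 0.0139), Ogn (0.57, adjusted p = 0.017), Bgn (0.62, adjusted p = 0.0188) and Lum (0.43, adjusted p = 0.0351). TAC WT arrays differed among themselves more than TAC KO arrays, as for Prelp, which lay between 8.33 and 9.05 in TAC KO and between 7.13 and 9.02 in TAC WT. Without TAC WT 1 the Vcan difference was -0.09, and without TAC WT 3 that of Prelp was 0.34. All 14 fits that left out 1 array called 0 of the 9 genes, with an adjusted p for Aspn between 0.0702 and 0.719. This comparison lies within 1 array run.

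In basal hearts 0 of 9 genes differed between KO and WT, as for all genes, of which 0.00% were higher and 0.00% lower by lead probe set, while Hspb8 again passed on 1417013_at and 1417014_at. All 9 differences were positive, against 53.3% of all genes. They ran from 0.02 for Vcan (95% interval -0.66 to 0.70) to 0.54 for Bgn (0.07 to 1.02, adjusted p = 0.841), with a median of 0.20 beside 0.01 over all genes. Bgn was the only one with an unadjusted p under 0.05. Prelp was the only one without overlap on its lead probe set, at 0.43 (95% interval -0.45 to 1.32), against 13.6% of all genes without overlap. Further probe sets without overlap were 1448323_a_at (0.51) and 1437889_x_at (0.39) of Bgn, 1416322_at (0.39) of Prelp and 1456084_x_at (0.61) of Fmod. None of these passed. The sign of the Vcan difference turned after quantile normalization (-0.01), and a further Vcan probe set, 1421694_a_at, was negative at -0.09 without it.

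Whether the KO effect differed between TAC and basal hearts was tested as an interaction, and 0 of 9 genes passed, with 0.00% of all genes in each direction. Unadjusted, 0 of the 9 had a p under 0.05. The widest estimates were 0.53 for Aspn (95% interval -0.25 to 1.32), 0.48 for Fmod (-0.27 to 1.23) and 0.45 for Ogn (-0.12 to 1.02). Bgn was the only negative one, at -0.05 (-0.68 to 0.57). That Dcn and Omd passed after TAC in WT and not in KO is therefore no difference between the genotypes that these data show. Comparisons that use the same TAC or basal arrays are not independent of each other.

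**Figure D4:**
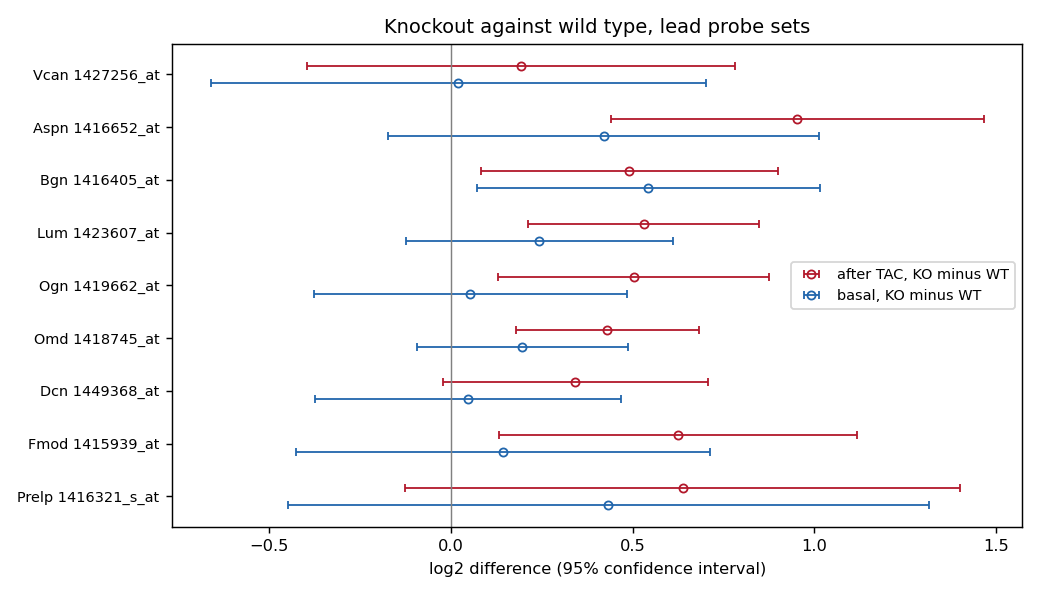
Log2 difference between KO and WT (horizontal axis) of the lead probe set of each gene, after TAC (TAC KO minus TAC WT) and in the basal state (basal KO minus basal WT). Points are limma estimates, bars are 95% confidence intervals and open points did not pass an adjusted p of 0.05; all 18 points lie right of 0, and 6 of the intervals after TAC and 1 in the basal state exclude 0.

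The genes that make, carry and bind these proteoglycans were read from 7 lists. Of collagens, 10 were measured, and 9 rose in KO and 7 in WT, where 22.4% of all genes rose in KO and 26.7% in WT, with medians of 1.62 in KO and 1.41 in WT. Col5a2, Col1a2, Col3a1 and Col6a3 had the smallest p in KO, with rises of 2.74, 1.80, 1.83 and 1.40. Decorin, biglycan, lumican and fibromodulin all bind such fibrils, and in KO Bgn and Lum rose as most collagens did, Dcn did not pass and Fmod fell.

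Of 21 measured enzymes that build chondroitin and dermatan sulfate chains, 10 rose and 1 fell in KO, where 22.4% of all genes rose and 21.3% fell. In WT 8 rose and 1 fell, beside 26.7% and 23.5% of all genes. Chsy1, which extends chondroitin chains, rose by 1.63 in KO and 2.05 in WT. Dse, the epimerase that makes dermatan from chondroitin sulfate, rose by 1.66 in KO and 1.94 in WT. Its basal means, 4.10 in KO and 3.82 in WT, lay under the filter value. The rises of Dse are therefore treated as lower bounds and not counted as support. B4galt7, which adds the first galactose of the linker, rose by 0.74 in KO, and B3gat3, which adds its glucuronic acid, fell by 0.70 in KO and 0.57 in WT. List medians were 0.57 in KO and 0.38 in WT. Of 4 measured keratan sulfate enzymes, B4galt1 rose and B4galt4 fell in KO (0.53 and -0.60), and B3gnt2 and B4galt1 rose in WT (0.72 and 0.47).

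Of 8 measured genes of hyaluronan synthesis and versican binding, 2 rose and 2 fell in KO, and 2 rose and 3 fell in WT. These counts are near the shares of all genes, at 22.4% higher and 21.3% lower in KO and 26.7% higher and 23.5% lower in WT, and say nothing particular of the list. Cd44, the hyaluronan receptor, rose by 2.67 in KO and 2.70 in WT, and the versican-binding Fbln2 rose by 0.96 in KO and 0.72 in WT. Fbln1 fell by 1.97 in KO and by 2.01 in WT, Has1 (a hyaluronan synthase) fell by 0.60 in KO and by 0.58 in WT, and Hapln3 fell by 0.30 in WT, the last named after its value was seen. Of 6 measured ADAMTS proteases that cleave versican, Adamts1 and Adamts4 rose in KO (1.28 and 1.19) and Adamts4 in WT (1.08), where Adamts1 had 0.66 (adjusted p = 0.0991).

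Receptors and signalling partners of the proteoglycans were measured for 18 genes. In KO 10 rose and 0 fell, beside 22.4% and 21.3% of all genes, and in WT 8 rose and 2 fell, beside 26.7% and 23.5% of all genes. The 2 lower in WT were Bmp4 (-0.90) and Egfr (-0.45), named after their values were seen. Tgfb2, a TGF-β ligand, rose by 2.15 in KO and 2.11 in WT, its receptor gene Tgfbr2 by 0.84 in each genotype, and Igf1r, the IGF-1 receptor that decorin binds, by 1.22 in KO and 1.08 in WT. Met, a further decorin receptor, had a mean of 5.64 in TAC KO and 5.94 in TAC WT, against 4.67 in basal KO and 4.54 in basal WT. Both KO means lie under the filter value, so no size is given for KO, where Met is among the 10 called, and in WT the rise was at least 1.40. Of 5 other measured leucine-rich proteoglycans and hyalectans, 0 rose, 3 fell in KO and 2 fell in WT. Bcan (brevican) was lower by 0.41 in KO and by 0.65 in WT. Chad (chondroadherin), counted in both, had TAC means under the filter value, 5.375 in KO and 5.11 in WT. Its basal means were 6.76 in KO and 6.78 in WT. Its falls of at least 1.39 in KO and at least 1.67 in WT are therefore not counted as support. In the comparisons of KO with WT, after TAC or in the basal state, 0 members of the 7 lists passed, and the collagens had medians of 0.76 after TAC and 0.58 in the basal state.

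**Figure D5:**
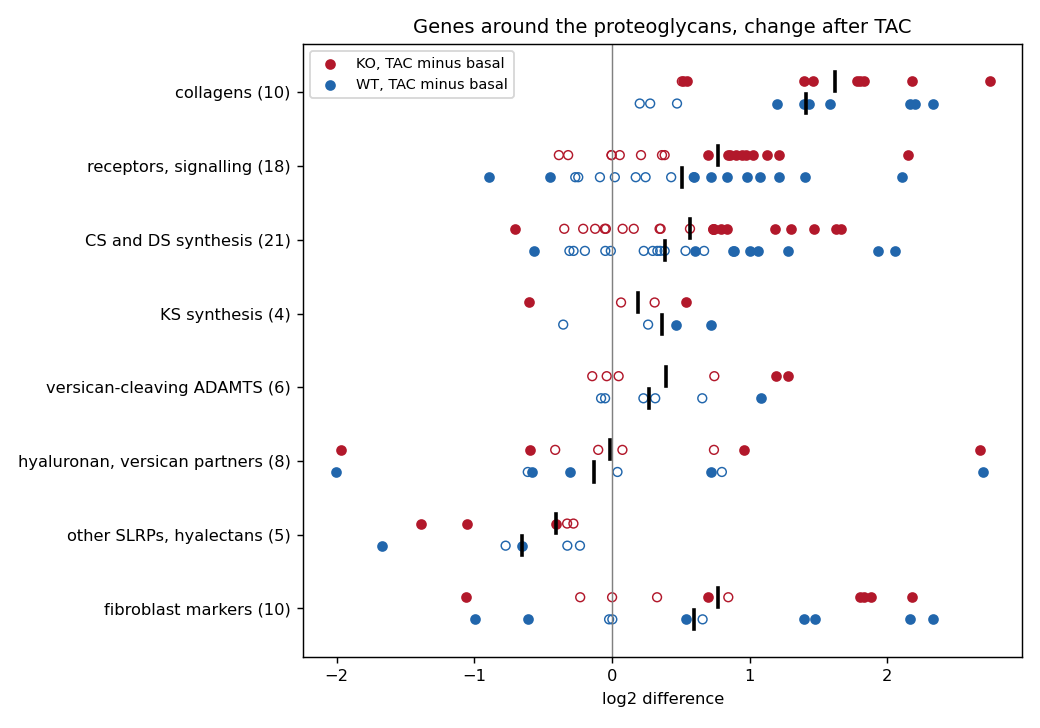
Log2 difference after TAC (horizontal axis) of the measured genes of 7 lists around the proteoglycans and of the fibroblast markers, in KO and in WT, with the number measured in brackets (CS, DS and KS stand for chondroitin, dermatan and keratan sulfate; SLRPs for small leucine-rich proteoglycans). Filled points passed an adjusted p of 0.05 and black ticks are list medians; the collagens lie furthest right (medians 1.62 in KO and 1.41 in WT).

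Markers of cell types were counted in the same way after TAC, and their part in the changes of the proteoglycans was not tested. Of all genes 22.4% rose and 21.3% fell in KO, and 26.7% rose and 23.5% fell in WT. Of 10 fibroblast markers, which share Col1a1, Col1a2 and Col3a1 with the collagens above, 5 rose and 1 fell in KO, and 5 rose and 2 fell in WT. Their mean level per array was 10.43 to 10.58 in TAC KO and 9.56 to 10.28 in TAC WT, against 9.57 to 9.86 in basal KO and at most 9.49 in basal WT, so that TAC KO lay above TAC WT on every array, as Aspn and Lum did. Of 7 markers of activated fibroblasts 6 rose in each genotype, while Comp did not pass in KO and fell in WT. Their mean levels were 9.96, 10.49, 10.35 and 10.40 in TAC KO and 8.49, 9.44, 10.39 and 9.84 in TAC WT. Basal KO had 7.53 to 7.72 and basal WT 7.06 to 7.25. TAC WT 1, which had the lowest Vcan of the TAC arrays, also had the lowest of these levels among the TAC arrays. Of 7 macrophage markers 5 rose in KO and 6 in WT, with levels of 9.83 to 10.07 in TAC KO and 8.75 to 10.40 in TAC WT, against 8.42 to 8.59 in basal KO and 7.77 to 8.31 in basal WT.

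Atrial cardiomyocyte markers (Sln, Myl7, Myl4) varied most between arrays. Their mean level was 9.93, 5.35, 8.32 and 10.46 in TAC KO and 9.83, 11.47, 10.11 and 5.18 in TAC WT, against 11.27, 8.45 and 13.12 in basal KO and 12.21, 12.39 and 12.60 in basal WT, with 0 of 3 called in KO and 1 lower in WT. This spread lies within groups as well as between them, and its part in the values of the proteoglycans was not tested. The shares of all genes were 22.4% higher and 21.3% lower in KO and 26.7% and 23.5% in WT. Several counts here, in lists of few genes, are near those shares and say nothing particular of the list. Of 6 endothelial markers 2 fell in KO and 3 in WT. Of 7 smooth muscle and pericyte markers 3 rose and 1 fell in KO, and 2 rose and 1 fell in WT. Of 4 measured tendon and cartilage markers 1 rose in KO (Scx) and 1 fell in WT (Comp, also on the activated fibroblast list). Of 3 epicardial markers 0 changed in KO and 1 fell in WT. Of 6 cardiomyocyte markers 0 changed in KO and 1 rose in WT. Lymphocytes had 2 measured markers, both lower in WT, erythroid cells 1, lower in each genotype, and adipocytes 1, which did not pass.

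Patterns most like those of the 9 genes were taken as the lead probe sets with the smallest root mean square difference of centred log2 values over the 14 arrays, as a description. For Dcn these were Ephx1 (0.127), Dpt (0.129) and Gfra1 (0.135), for Ogn they were Selenop (0.164), Fcgrt (0.173) and Tcn2 (0.175), and for Omd they were Dact3 (0.130), Sppl3 (0.149) and Ttc28 (0.150). Dpt encodes dermatopontin, a matrix protein that binds decorin. Aspn lay nearest to Mfap5 (0.305), a microfibril protein, Anxa1 (0.316) and Fstl1 (0.339), and Vcan to Med14 (0.234), Fgl2 (0.268) and Rtn4 (0.270). Fmod and Prelp shared Gstt1 among their 3 nearest (0.286 for Fmod and 0.301 for Prelp), beside Igfbp6 (0.315) and Sh3glb2 (0.320) for Fmod and Islr (0.248) and Gsn (0.324) for Prelp. Bgn lay nearest to Iqgap2 (0.184), Bicc1 (0.197) and Ltbp3 (0.202), and Lum to Cbr2 (0.189), Scn7a (0.204) and Cd302 (0.216). Genes that vary little lie close to each other by this measure. Among the 9 genes themselves the closest pairs were Omd and Ogn (0.180), Dcn and Omd (0.243) and Dcn and Ogn (0.265), followed by Bgn and Lum (0.357) and by Fmod and Prelp (0.403), whereas Dcn and its relative Bgn lay 0.772 apart.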

How the data were processed

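The submitters deposited log2 expression values per probe set, made by the authors with RMA, per the submitters' processing notes, which name no version and do not say whether the 14 arrays were normalized jointly. Trizol total RNA was biotin-labelled, per the labels' protocols. Groups and replicate numbers come from sample titles. Of 45101 probe sets, 64 are controls, 34958 had 1 gene symbol in the platform annotation, 932 several and 9211 none.

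Probe sets above 5.75 on at least 3 arrays were kept (24525). A gene's lead probe set is its kept one with the highest mean over all arrays (12260 genes). Limma 3.58.1 in R 4.3.3 fitted 4 group means to 14 arrays (10 residual and 3.73 prior degrees of freedom), and p-values were adjusted by Benjamini-Hochberg over all kept probe sets, with a threshold of 0.05. The script was tested on simulated data. SE comes from the model, SD from arrays. Where the lower group's mean is under 5.75, the fold is treated as a lower bound. This is a convention, as 5.75 is the filter value and no detection floor was measured.

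Named genes were the 9 members, Hspb8, up to 4 genes per list with the smallest p, and 3 nearest patterns per member. Members, pairs and lists were chosen with earlier results of these data known. Alternatives were no filter, a filter at 7.7, lead probe sets alone, the mean of probe sets, leaving out probe sets ending in _x_at and _s_at, quantile normalization, centring, the arrays of the comparison alone, a trended robust variance, array weights, the replicate block, and leaving out each array. Raw intensities were not used here.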

Additional observations from a re-analysis of the deposited data

Results flagged for a closer look

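Versican in TAC WT 1 lay apart from the other arrays of its group, at a log2 value of 8.13 on probe set 1427256_at, where the other 3 TAC WT arrays had 9.16, 9.32 and 9.29. The gap to the nearest of the others was 0.866 of the range of the group, above Dixon's 95% value of 0.829 for 4 arrays. In all, 42 groups of 4 arrays were examined over the tested probe sets, and chance alone marks about 1 in 20 groups. Without this array the difference between TAC KO and TAC WT was -0.09 for Vcan, and the rise of Vcan in WT was 2.12.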

How the results depend on the processing

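Of 45 log2 differences (9 genes in 5 comparisons), 14 passed, none of these 14 changed sign in any alternative, and 5 lost their call in at least 1 (Lum, Dcn and Omd in WT after TAC, Prelp and Fmod in KO after TAC). The stricter filter, which drops dim genes, left 1 gene lower in KO and 2 lower in WT after TAC, and the fit on the WT arrays alone also left 2 lower. Array weights called 5 genes higher in TAC KO than in TAC WT, where 5.37% of all genes were called higher and 6.53% lower. Leaving out 1 array gave 1 to 2 genes lower in KO after TAC (1 without basal KO 1, 2 or 3 or TAC KO 2), 3 to 4 higher and 2 to 5 lower in WT after TAC (2 lower without basal WT 1, TAC WT 3 or TAC WT 4). The cause was not tested.

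Of 19 same-numbered pairs of arrays, 2 correlated over 0.1, both among the 4 pairs of TAC KO with TAC WT (0.579 for replicate 1 and 0.503 for replicate 4, against -0.02 for replicate 2 and -0.085 for replicate 3). Not every pair did, so the main fit took the samples to share only a number. Arrays of different numbers were not compared, so whether these 2 pairs share more than a number was not tested. The replicate block left 4 higher and 2 lower in KO and 4 higher and 3 lower in WT, with Omd in WT not called (-0.30, adjusted p = 0.0837). Between TAC KO and TAC WT the block called 0 of 9, with adjusted p from 0.254 for Lum to 0.847 for Vcan (0.310 for Aspn).

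Sign changes touched 8 values, none of them called. The Bgn interaction was 0.069 with the mean of probe sets, 0.014 after quantile normalization and 0.047 with array weights, and -0.22 to 0.10 without 1 array. Quantile normalization gave -0.018 for Ogn in KO after TAC and -0.010 for Vcan in basal KO minus basal WT, and array weights gave -0.42 for the Prelp interaction. Without 1 array, Vcan ran from -0.14 to 0.27 in basal KO minus basal WT, from -0.089 to 0.31 in TAC KO minus TAC WT and from -0.11 to 0.34 in the interaction. Ogn ran from -0.043 to 0.12 and Fmod from -0.062 to 0.32 in basal KO minus basal WT, the Prelp interaction from -0.096 to 0.53, and Ogn in KO after TAC from -0.013 to 0.24.

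Scaling moved the balance of all calls after TAC: 53.2% of those in WT were higher, against 41.0% after quantile normalization and 62.8% after centring, and 51.3%, 43.4% and 54.0% in KO. Quantile normalization shifted the median gene by -0.12 in WT. Dim probe sets near 5.75, such as those of Omd and Fmod, limit the precision of their values, as does the number of arrays.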
